A study of Mus musculus with 6 samples.

Results

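Expression of 7 genes of the innate-like T cell program was followed in stimulated mouse regulatory T cells: Zbtb16, which encodes PLZF, the paired membrane protein genes Tmem176a and Tmem176b, the kinase gene Blk, the scavenger receptor gene Cd163l1, and the helix-loop-helix genes Id2 and Id3. The deposited tables give these symbols in capitals (ZBTB16, TMEM176A, TMEM176B, BLK, CD163L1, ID2 and ID3). These 7 genes, of 24982 symbols in the count table, were chosen by name with their knockout against wild-type fold changes in the same 6 libraries already known. Their differences between the groups are therefore a description and carry no test. All 7 passed the filter on low counts, as did 11772 genes in all.

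The cells were natural regulatory T cells (nTreg cells), CD4+CD25+CD127lo cells sorted from spleens of B6.129 mice aged 8 to 10 weeks. The knockout mice (KO) carried Srsf1-flox/flox with dLck.Cre, in which the distal promoter of the T cell gene Lck drives Cre, so that the splicing factor gene Srsf1 is deleted in T cells, and the comparison mice were labelled WT, without mention of Cre. Each genotype had 3 libraries, and the series describes 3 mice per genotype. All cells had been stimulated for 72 h with antibodies to CD3 (2 µg/ml) and CD28 (2 µg/ml) and with recombinant interleukin-2 (10 ng/ml). The source field names effector CD4 T cells, against the titles and the sorting protocol. Foxp3, the factor that defines Treg cells, was present in every library, at 464, 357 and 413 CPM in KO and 160, 121 and 104 CPM in WT (CPM, counts scaled to a common library size with TMM factors).

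PLZF is a zinc finger transcription factor that gives natural killer T (NKT) cells, mucosal-associated invariant T cells and some gamma-delta T cells their rapid effector behaviour, while conventional T cells mostly lack it. Id proteins lack a DNA-binding region and hold E proteins, such as those encoded by Tcf3 and Tcf12, away from DNA. In mouse thymus, the balance of E and Id proteins helps to decide how many innate-like T cells form. Tmem176a and Tmem176b encode related 4-span membrane proteins and are known in dendritic cells. Blk, a kinase of the SRC family, is best known from B cells and is also found in mouse gamma-delta T cells that make interleukin-17, and Cd163l1, also called Scart1, encodes a scavenger receptor of mouse gamma-delta T cells.

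Tmem176a and Tmem176b are neighbours on mouse chromosome 6 and are read in opposite directions. The stretch between their outermost start sites is shown because both genes stood higher in all 3 KO libraries. In the window of 300 bases given below, from RefSeq (GRCm38.p6, chr6:48841325-48841624, minus strand, written 5′ to 3′), Tmem176b starts at base 251 and Tmem176a starts on the other strand at base 142, 109 bases away.
Tmem176b: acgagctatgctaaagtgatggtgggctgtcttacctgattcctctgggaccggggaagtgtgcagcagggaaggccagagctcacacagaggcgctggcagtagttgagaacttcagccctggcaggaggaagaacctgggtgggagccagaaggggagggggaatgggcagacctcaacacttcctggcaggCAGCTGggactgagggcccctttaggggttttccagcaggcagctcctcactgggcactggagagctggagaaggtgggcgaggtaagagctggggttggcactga
The capitals mark 1 match to CANNTG, the E-box to which E proteins bind, which reads the same on both strands. It lies at base 195, between the start sites. Promoter windows were at hand for 5 of the 7 genes, 8 windows in all. An E-box was found in 7 of these 8, against 72.3% of 32851 mouse promoter windows of that length. The windows of Tmem176a and Tmem176b overlap along the same stretch, so some E-boxes are counted more than once. The window without an E-box was that of Id3.

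Depth and library quality differed between libraries. Total gene counts were 10183626 to 20373649 in KO and 23263741 to 27562046 in WT, so that 3 counts correspond to 0.147 to 0.295 CPM in KO and 0.109 to 0.129 CPM in WT before scaling. Srsf1 itself, counted over the whole gene, was at 438, 812 and 787 CPM in KO replicates 1, 2 and 3 and at 1214, 1230 and 755 CPM in the libraries labelled WT replicates 1, 2 and 3, so the last lay below KO replicates 2 and 3. KO replicate 1 stood apart from the other 5 libraries, and its deviation followed the GC content of the transcripts. Its median log2 deviation from the mean of all libraries was -0.86 in the lowest of 4 equal bins of genes by GC content and 0.86 in the highest. In these bins the other 5 libraries lay between 0.10 and 0.27 and between -0.25 and -0.07. Of the 7 genes, 6 had a GC content of 51.5% to 57.6%, above the median gene, and Id2 had 45.9%.

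**Figure D1:**
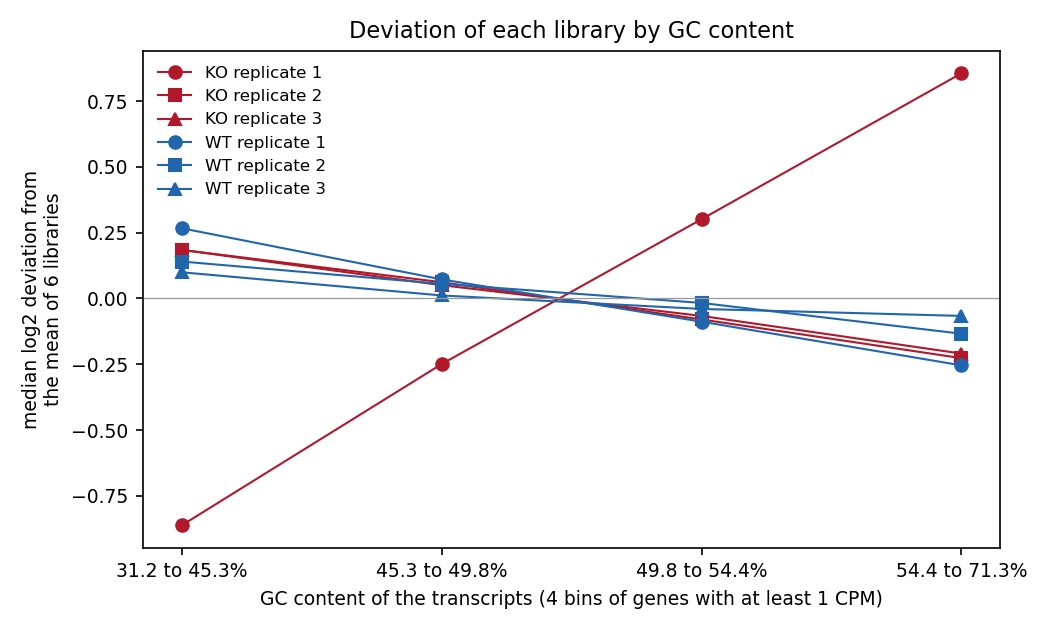
Median log2 deviation of each library (lines; KO red, WT blue, symbols for replicate numbers) from the mean of the 6 libraries, for 4 equal bins of genes by the GC content of their transcripts. KO replicate 1 runs from -0.86 to 0.86, while the other 5 libraries stay between -0.25 and 0.27.

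All 7 genes had a log2 fold change above 0 in KO over WT, but they did so in different ways. For Zbtb16, Tmem176a, Tmem176b and Blk, every KO library lay above every WT library. Such a gap was found for 15.7% of all tested genes, and with KO higher for 7.48%, and since this contrast chose the genes nothing is read from the 4 of 7. In edgeR's quasi-likelihood test none of the 7 passed an adjusted p of 0.05, where 0.0170% of all tested genes did. In DESeq2, Zbtb16, Tmem176a and Tmem176b passed, where 0.799% of tested genes were called higher in KO. The libraries are bulk RNA, in which fewer cells of a type and less RNA per cell cannot be told apart.

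**Figure D2:**
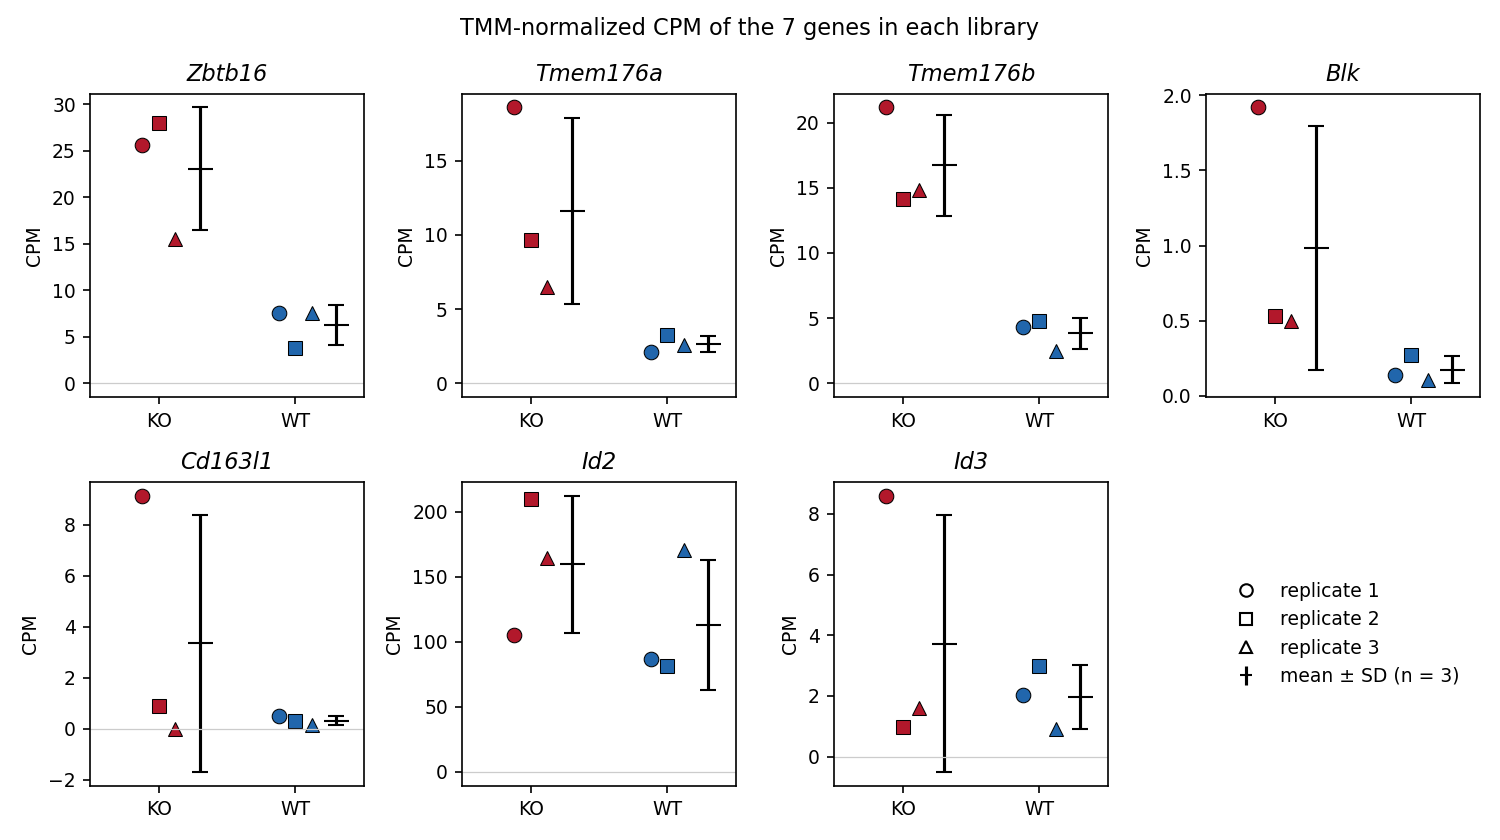
TMM-normalized CPM (vertical axes, each on its own scale, with 0 shown) of the 7 genes, KO left and WT right, 1 symbol per library with the mean ± SD beside it (n = 3). Zbtb16, Tmem176a, Tmem176b and Blk do not overlap between the groups, while KO replicate 1 alone is high for Cd163l1 (9.14 CPM) and Id3 (8.59 CPM).

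Zbtb16 was at 25.6, 28 and 15.5 CPM in KO replicates 1, 2 and 3 and at 7.55, 3.84 and 7.53 CPM in WT replicates 1, 2 and 3. All KO values lay above all WT values, and the lowest KO library was 2.06 times the highest WT library. The means were 23.0 ± 6.61 CPM in KO and 6.31 ± 2.13 CPM in WT (SD, n = 3 each), a log2 fold change of +1.87 (SE 0.38). This value stood between +1.61 and +2.07 with any 1 library left out, and at +1.79 without KO replicate 1. With a correction for GC content and transcript length it was +1.59, and the corrected levels were 15.8, 30.3 and 17.1 CPM in KO and 9.21, 4.37 and 7.41 CPM in WT.

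Per length, Zbtb16 remained a scarce transcript in both groups. Its FPKM level was 2.89, 2.70 and 1.49 in KO and 0.705, 0.379 and 0.770 in WT. Set against Foxp3 in the same library, the FPKM ratio of Zbtb16 to Foxp3 was 0.0260, 0.0369 and 0.0178 in KO and 0.0223, 0.0149 and 0.0343 in WT. These ratios overlapped, with WT replicate 3 close to the highest KO library. Foxp3 itself stood higher in every KO library than in any WT library (log2 fold change +1.68, SE 0.25, edgeR adjusted p = 0.197, DESeq2 adjusted p = 1.59e-06), so both parts of the ratio differed between the groups.

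Tmem176b had 21.2, 14.1 and 14.8 CPM in KO and 4.29, 4.75 and 2.48 CPM in WT. The groups were well apart, with the lowest KO library at 2.97 times the highest WT library. The log2 fold change was +2.12 (SE 0.37), with +1.87 to +2.30 when 1 library was left out. Correction for GC content and length brought the 3 KO libraries together, at 15.2, 15.8 and 16.1 CPM in KO, against 4.69, 4.86 and 2.54 CPM in WT, with a log2 fold change of +1.96. With this correction Tmem176b was the only 1 of the 7 that edgeR called, where 0.127% of tested genes were called higher in KO.

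Its partner Tmem176a had 18.6, 9.66 and 6.52 CPM in KO and 2.12, 3.26 and 2.58 CPM in WT. The groups did not overlap, but the lowest and highest KO libraries lay farther from each other than the lowest KO library from the highest WT library. The log2 fold change was +2.13 (SE 0.45), and +1.61 without KO replicate 1, the library with the highest value. The corrected levels kept that order, at 16.0, 10.2 and 6.78 CPM in KO and 2.22, 3.26 and 2.62 CPM in WT. Both partners were at similar levels per length: the FPKM ratio of Tmem176b to Tmem176a was 1.03, 1.34 and 2.08 in KO and 1.97, 1.37 and 0.893 in WT. These ratios overlapped between the groups. No exon of either gene overlaps an exon of another gene in the basic GENCODE M21 annotation, which is of another build than the counts.

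Blk and Cd163l1 were close to the limit of detection in 5 of the 6 libraries. Blk had 42, 7 and 5 counts in KO and 3, 7 and 3 counts in WT, or 1.92, 0.528 and 0.501 CPM in KO and 0.136, 0.275 and 0.108 CPM in WT. The groups did not overlap, yet the 95% exact Poisson interval of the lowest KO library, 0.163 to 1.17 CPM, held the value of WT replicate 2, whose own interval was 0.110 to 0.566 CPM. The gap between these libraries is thus not detectable at this depth, and the intervals cover counting error only. The log2 fold change of +2.53 (SE 0.74) became +1.54 without KO replicate 1.

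Cd163l1 had 200, 12 and 0 counts in KO and 11, 8 and 4 counts in WT. KO replicate 1, at 9.14 CPM, stood 10.1 times above the highest other library. KO replicate 2 was at 0.906 CPM, with an interval of 0.468 to 1.58 CPM, and the interval for the 0 counts in KO replicate 3 reached 0.370 CPM. WT replicates were at 0.497, 0.314 and 0.144 CPM, within the range of the other KO libraries. The log2 fold change of +3.44 (SE 1.34) stood at +0.61 without KO replicate 1. With the GC and length correction KO replicate 1 was at 4.71 CPM, against 1.04 and 0 CPM in KO replicates 2 and 3 and 0.630, 0.364 and 0.142 CPM in WT, so its lead over the other libraries became smaller but remained.

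**Figure D3:**
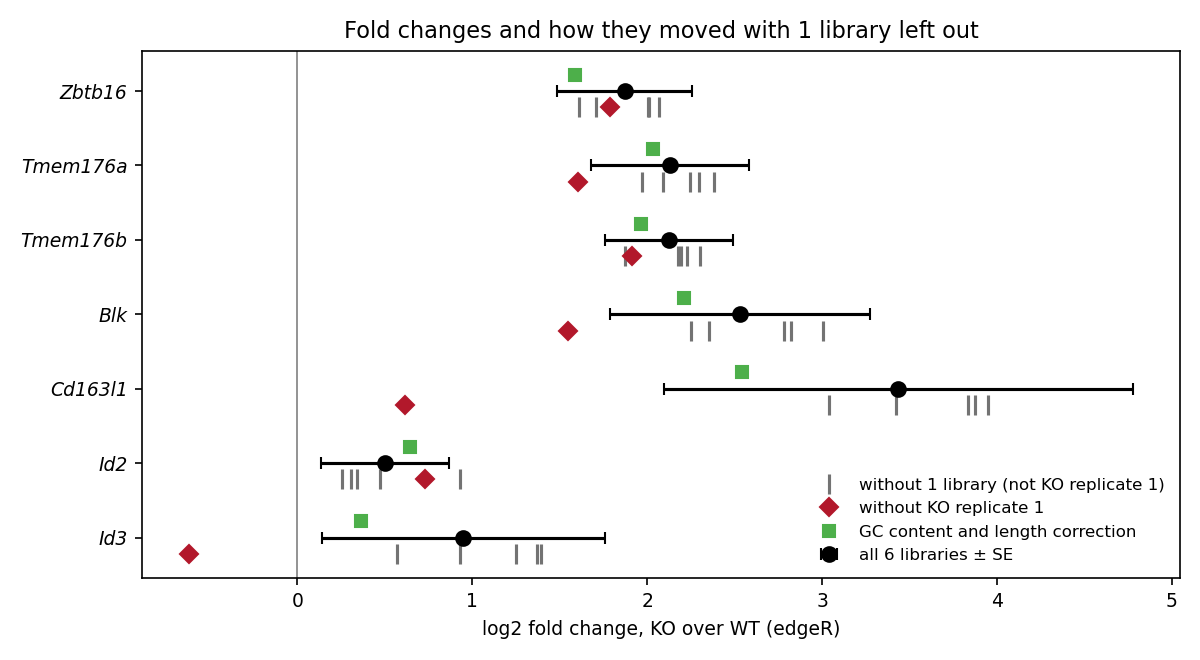
Log2 fold change of KO over WT (horizontal axis, edgeR) for the 7 genes, with all libraries (black, ± SE), with GC content and length correction (green), without KO replicate 1 (red) and without each other library (grey). Without KO replicate 1, Cd163l1 moves from +3.44 to +0.61 and Id3 from +0.95 to -0.62, while Zbtb16 stays at +1.79 and Tmem176b at +1.91.

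Id2 was by far the most abundant of the 7 genes, and the groups overlapped. It had 105, 210 and 165 CPM in KO and 86.6, 81.3 and 171 CPM in WT, so the library labelled WT replicate 3 reached the range of KO while KO replicate 1 lay near the other WT libraries. The log2 fold change was +0.50 (SE 0.37). Leaving out the library labelled WT replicate 3 gave +0.93, and leaving out KO replicate 1 as well gave +1.18. In this setting of 2 against 2 libraries edgeR called Id2 and Tmem176b, where 0.554% of tested genes were called higher in KO. For Id2 the libraries left out were its lowest KO and its highest WT library. The call of Id2 thus follows from that choice and carries no test. The library labelled WT replicate 3 was the one with low Srsf1, and KO replicate 1 the one with the trend in GC content. In FPKM, Id2 was at 82.9, 141 and 109 in KO and at 56.6, 56.3 and 122 in WT. With the GC and length correction and all libraries, the log2 fold change was +0.64. The corrected levels were 144, 199 and 154 CPM in KO and 78.2, 77.0 and 163 CPM in WT. KO replicate 1 then stood clear of WT replicates 1 and 2, while WT replicate 3 still lay above KO replicates 1 and 3.

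Id3 was scarce, and its direction rested on 1 library. It had 188, 13 and 16 counts in KO and 45, 76 and 25 counts in WT, or 8.59, 0.981 and 1.6 CPM in KO and 2.03, 2.98 and 0.897 CPM in WT. KO replicates 2 and 3 lay within the WT range, and KO replicate 1 stood 2.88 times above the highest other library. The log2 fold change was +0.95 (SE 0.81) with all libraries and -0.62 without KO replicate 1. With the GC and length correction it was +0.36, with KO at 4.84, 1.2 and 1.83 CPM and WT at 2.35, 3.17 and 0.932 CPM.

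The 2 Id genes did not run in parallel. The FPKM ratio of Id2 to Id3 was 8.98, 161 and 71.3 in KO and 33.5, 19.5 and 138 in WT. It was thus lowest in KO replicate 1 and highest in KO replicate 2, with all WT libraries in between. Over the 7 genes, KO replicate 1 was the highest library for 5 and at least 2-fold above every other library for 3, Blk, Cd163l1 and Id3. Over all tested genes these shares were 36.6% and 8.05%.

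**Figure D4:**
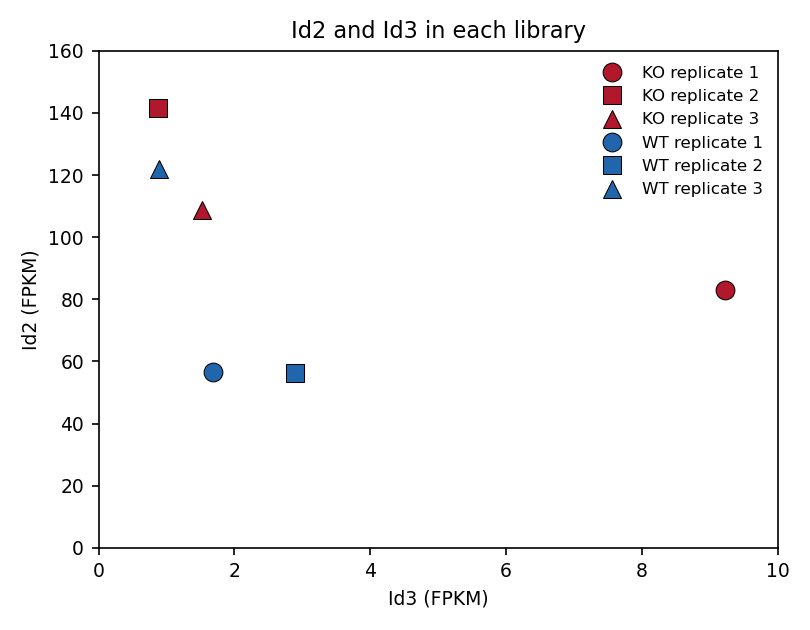
Id2 (vertical axis, FPKM) against Id3 (horizontal axis, FPKM), 1 symbol per library, KO in red and WT in blue. KO replicate 1 lies alone at 9.23 FPKM of Id3, and the library labelled WT replicate 3 lies between KO replicates 2 and 3 in Id2.

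The order of mean levels per length was the same in both groups with all libraries. By mean FPKM in KO, Id2 (111 ± 29.4) came first, followed by Tmem176b (13.5 ± 4.30), Tmem176a (10.5 ± 6.63), Id3 (3.88 ± 4.64), Zbtb16 (2.36 ± 0.762), Cd163l1 (0.797 ± 1.21) and Blk (0.340 ± 0.308). In WT the order was Id2 (78.3 ± 37.8), Tmem176b (3.07 ± 0.889), Tmem176a (2.26 ± 0.506), Id3 (1.82 ± 1.01), Zbtb16 (0.618 ± 0.210), Cd163l1 (0.0646 ± 0.0317) and Blk (0.0428 ± 0.0191), all SD with n = 3. In KO only Id2 stood clear of its neighbour by more than the spread, and for every other pair of neighbours the ranges of mean ± SD overlapped. Without KO replicate 1, Id3 averaged 1.20 FPKM in KO, below Zbtb16 at 2.09 FPKM, and Cd163l1 averaged 0.101 FPKM, below Blk at 0.162 FPKM, so these ranks in KO rested on that library. In WT, Id2 and Tmem176b were likewise far apart, and Zbtb16 stood clear of Cd163l1. The ranges of Tmem176b, Tmem176a and Id3 overlapped, as did those of Id3 and Zbtb16 and those of Cd163l1 and Blk.

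Genes nearest in profile were taken from 10584 genes with a mean of at least 1 CPM, by the mean absolute difference of centred log2 CPM over the 6 libraries. For Zbtb16 they were Nos1 (0.26), a nitric oxide synthase gene, the antiviral gene Oasl2 (0.27) and the motor protein gene Myo1e (0.27), where the median gene was at 0.92. Tmem176a and Tmem176b stood at 0.48 and 0.51 from Zbtb16. Nearest to Tmem176b were the urea transporter gene Slc14a1 (0.17), the matrix protein gene Ctgf (0.19) and Igfbp7 (0.20), and Tmem176a came 21st at 0.32. Nearest to Id2 were Setbp1 (0.15), the TNF receptor family gene Tnfrsf26 (0.16) and the phospholipase gene Plcd4 (0.16), all with the library labelled WT replicate 3 above KO replicate 1 and the other WT libraries. Nearest to Id3 were the lamin gene Lmna (0.20), the co-chaperone gene Hspbp1 (0.23) and the immunoproteasome gene Psmb10 (0.24), all highest in KO replicate 1 and with a GC content of 58.2% to 59.6%.

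Genes that act with PLZF were counted from lists drawn up by function, beside all tested genes, of which 51.6% were above 0 and whose median was +0.02 on the log2 scale. Among 20 tested regulators and partners of PLZF, 15 were above 0 (median +0.52), and 0 passed in edgeR or DESeq2. The list median was +0.22 without KO replicate 1 and +0.14 with the GC and length correction. The members with the smallest p were Runx1 (+0.77, SE 0.22), which takes part in switching on Zbtb16 in mouse NKT cells, Myb (+0.80, SE 0.22), Tox (+1.21, SE 0.34) and Sh2d1a (-0.84, SE 0.25), which encodes the adaptor SAP of SLAM receptors. Tox was at 33.2, 37.4 and 26.6 CPM in KO and at 16.9, 16.7 and 8.25 CPM in WT. In 5 of the 20 genes every KO library lay above every WT library, against 7.48% of all tested genes. Only Sh2d1a had every KO library below every WT library, as had 963 of 11772 tested genes. It was at 36.8, 55.5 and 47.1 CPM in KO and 77.9, 99.2 and 71.9 CPM in WT.

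Among the E protein genes Tcf3 and Tcf12, the other Id genes, and Lyl1 and Tal1, 4 of 6 were tested. Of these 3 were above 0 and 0 passed in either test. Tcf3, which encodes the E proteins E12 and E47, stood at +0.58 (SE 0.46), with 188, 48.5 and 65.5 CPM in KO and 70.1, 70.0 and 62.8 CPM in WT, and at -0.25 without KO replicate 1. Tcf12, which encodes HEB, stood at +0.20 (SE 0.28), Id1 at +1.07 (SE 0.63) and Lyl1 at -0.16 (SE 0.79). As for Id3, the single high value of Tcf3 and the highest value of Id1, 4.75 CPM, were those of KO replicate 1.

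Effector genes of innate-like T cells were mixed, with 17 of 22 above 0 (median +0.37), 0 passing in edgeR and 1 higher in DESeq2. That gene was Cxcr6, a chemokine receptor of NKT cells and other resident lymphocytes, at 38.2, 81.6 and 27.6 CPM in KO and 12.1, 16.2 and 17.4 CPM in WT (log2 fold change +1.69, SE 0.41, DESeq2 adjusted p = 0.0161, edgeR adjusted p = 0.371). The NK receptor gene Klrb1b stood at +2.32 (SE 0.65), the granzyme gene Gzmb at -1.20 (SE 0.34) and Il12rb2, a chain of the interleukin-12 receptor, at -1.77 (SE 0.56). These 4 had the smallest p of the list, and all had groups that did not overlap. Without overlap, KO was higher in 5 of the 22 and lower in 3, where 15.7% of all tested genes had no overlap.

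In the type 17 list, 11 of 17 tested genes were above 0 (median +0.58), with 0 past the threshold in edgeR and 2 higher in DESeq2, the cytokine genes Il17f (+2.37, SE 0.31) and Il17a (+2.21, SE 0.41). Next were Aqp3 (+1.53, SE 0.52), which encodes a water and glycerol channel, and Etv5 (+0.77, SE 0.36). Leaving out KO replicate 1 gave +0.70 for Aqp3 and +0.56 for Etv5, against +2.36 for Il17f and +2.10 for Il17a.

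Relatives of Blk and of the Tmem176 genes were counted in the same way. Of 10 tested SRC family kinases and regulators 5 were above 0 (median +0.05) and 0 passed in either test, led by Src (+1.35, SE 0.46) and Lyn (+1.07, SE 0.41). In 4 of the 10 every KO library lay above every WT library, against 7.48% of all tested genes, and in 0 below. Without KO replicate 1, 7 of the 10 were above 0 (median +0.22), with Src down to +0.73 and Lyn at +1.12. After Src and Lyn, the smallest p were those of Csk (+0.52, SE 0.28), whose kinase restrains the family, and Fyn (+0.33, SE 0.22). Leaving out KO replicate 1 gave +0.21 for Csk and +0.32 for Fyn. Of 4 tested MS4A-related genes 3 were above 0 (median +0.33) and 0 passed, with Ms4a6c at +0.71 (SE 0.48). The sign of that median rested on KO replicate 2, without which it was -0.41.

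**Figure D5:**
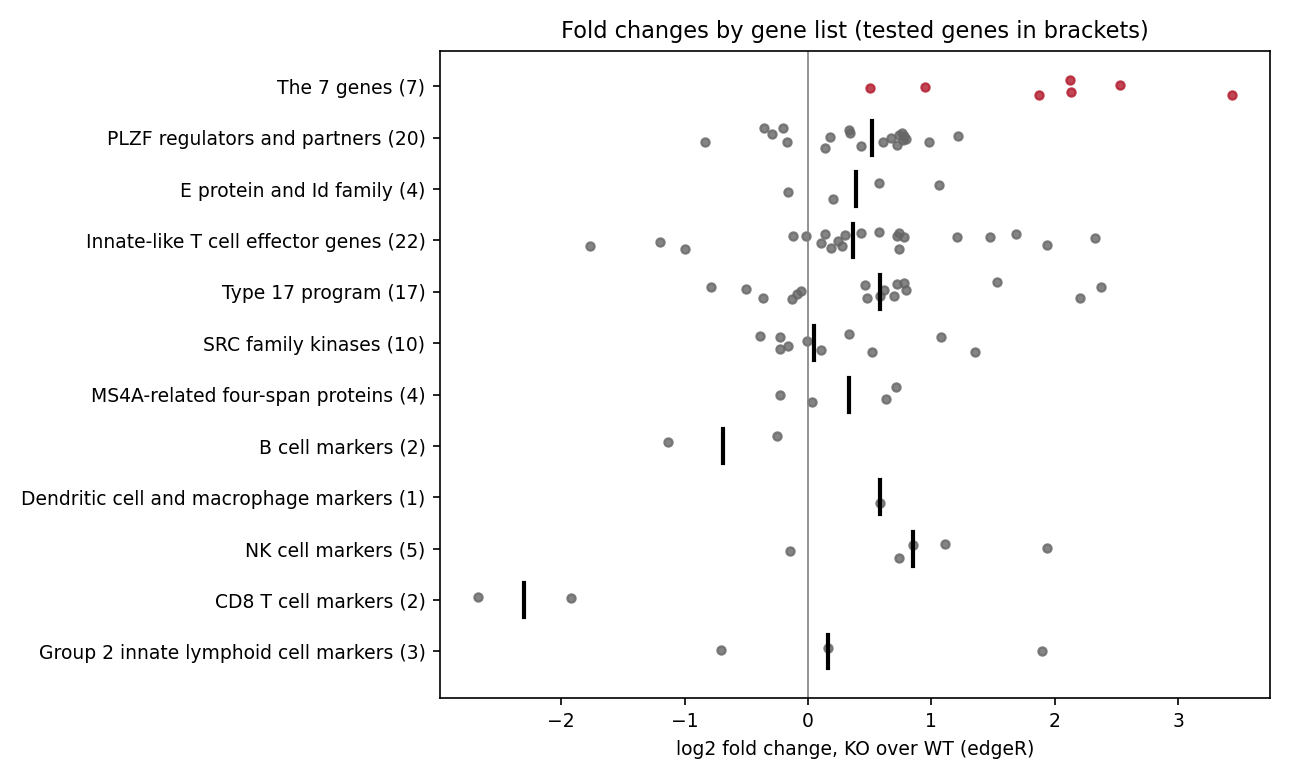
Log2 fold change of KO over WT (horizontal axis, edgeR) for the 7 genes (red) and for the tested members of each list (grey), with the list median as a black bar. The list medians run from -2.30 for the 2 CD8 T cell markers to +0.85 for NK cell markers.

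Markers of other cells that could carry these transcripts were measured in the same libraries. Of 11 B cell markers, 7 had at most 4 counts in any library, Cd79a among them, and the summed level was 6.19 to 8.72 CPM in KO and 6.39 to 22.3 CPM in WT. Most of the sum came from Ebf1, at 17.2 CPM in WT replicate 3, and from Cd79b. Cd79b was at 4.57, 2.41 and 0.602 CPM in KO and 2.67, 2.47 and 4.13 CPM in WT. Cd79b and Blk were both highest in KO replicate 1, while WT replicate 3 was next for Cd79b and lowest for Blk (0.108 CPM). Ebf1 was at 2.61 CPM in KO replicate 1. The part of B cells in the Blk values was not tested. Of 15 dendritic cell and macrophage markers, 10 had at most 4 counts, and 5 of these were listed at 0 in all libraries, as was the ribosomal protein gene Rpl26 in the count table, so a listed 0 may be a missing value. The 15 markers summed to 3.11 to 6.17 CPM in KO and 2.08 to 2.82 CPM in WT, so the sums did not overlap. Zbtb46 gave 1.40 to 3.84 CPM of this in KO and 1.40 to 2.39 CPM in WT, with overlap. Xcr1 was at 0.274, 0.226 and 0.702 CPM in KO and 0.0452, 0.0392 and 0.0718 CPM in WT. Xcr1 and Adgre1 were higher in KO without overlap, with at most 7 and 4 counts. Cd14, with at most 3 counts, had a lower mean in KO. The part of such cells in the Tmem176a and Tmem176b values was not tested. NK cell markers summed to 56.9 to 93.8 CPM in KO and 27.4 to 101 CPM in WT, where Prf1, the perforin gene, gave 80.7 CPM of the highest sum, that of the library labelled WT replicate 3. Of the 5 tested NK cell markers 4 were above 0 (median +0.85, and +1.46 without WT replicate 3). Ncr1, a receptor gene of NK cells that did not pass the filter, was at 0.320, 2.04 and 0.301 CPM in KO and 0.136, 0.0392 and 0.0359 CPM in WT, without overlap. In KO replicate 3 and WT replicate 1 it lay near the level of 3 counts, 0.295 and 0.129 CPM before scaling. Klrb1c, a marker of NK and NKT cells, was at 0.869, 1.89 and 1.91 CPM in KO and 0.181, 0.196 and 0.789 CPM in WT, also without overlap. Ncr1 had at most 27 counts in any library and Klrb1c at most 25, and counting error was not assessed for either gene. The part of NK and NKT cells in the Zbtb16 values was not tested. Group 2 innate lymphoid cell markers summed to 7.77 to 11.2 CPM in KO and 4.0 to 18.1 CPM in WT. The highest sum, in the library labelled WT replicate 3, came mostly from Kit (9.83 CPM) and Rnf128 (6.74 CPM). Of 3 tested markers 2 were above 0: Il17rb at +1.90 (SE 0.62), without overlap and with at most 40 counts, and Kit at +0.16 (SE 0.82). Rnf128 stood at -0.70 (SE 0.60). The part of such cells in the values of the 7 genes was not tested. CD8 T cell markers were lower in KO, with sums of 38.9 to 60.5 CPM in KO and 193 to 269 CPM in WT, and Cd8b1 passed in edgeR (log2 fold change -2.68, SE 0.23, adjusted p = 0.0166). With any single library other than KO replicate 1 left out, Cd8b1 no longer passed in edgeR (adjusted p = 0.0811 to 0.220), while its log2 fold change stayed between -2.77 and -2.61.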

How the data were processed

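The authors deposited 2 tables that were used: raw whole-number counts for each gene symbol, and FPKM values, which they normalized for length and depth. Per the labels' design text, the VIPER pipeline handled reads of 75 bases. STAR 2.4.2a is named as aligner in the file headers, and mm9 as build in the submitters' processing notes. How strand was treated in counting is not given in the sources used here. Of 24982 symbols in capitals 24891 were matched to mouse symbols, and 26 entries with a date in place of a symbol (0.271% of counts) stayed in library sizes and were not named.

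The count test was the quasi-likelihood F test of edgeR 4.0.16 (R 4.3.3), with TMM factors, filterByExpr at a minimum count of 10 and Benjamini-Hochberg adjustment over all tested genes at a threshold of 0.05. Standard errors came from the F statistic. DESeq2 1.42.0 and limma 3.58.1 served as alternatives. The fit was also run on simulated counts, which held no GC trend in any library and so do not test it for data such as KO replicate 1. GC content and length of transcripts came from GENCODE M21 by symbol, for 99.4% of tested genes. The correction, added after the data were seen, is an offset per library from a spline fit. The 7 genes and the lists were chosen with earlier results of these data known. Named list genes are those past the threshold or up to 4 with the smallest p, and nearest profiles (3 per gene) use log2(CPM + 0.5). Replicates were treated as separate mice, since the design text gives 3 per genotype, and chi-square per degree of freedom between pairs of them was at least 22.0.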

Additional observations from a re-analysis of the deposited data

How the results depend on the processing

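edgeR called 2 genes among all tested, none of them 1 of the 7. It called 2 with DESeq2 size factors, with upper quartile scaling and when 3 libraries had to reach 1 CPM, but 6 without a filter. The DESeq2 Wald test called 129, limma voom 1, limma on log2(FPKM + 1) and on log2(FPKM + 0.1) 0 each (1040 and 1033 at an unadjusted p under 0.05), and 2 with a minimum of 1 FPKM in 3 libraries. With 1 library left out edgeR called 0 to 3, with 0 when any library other than KO replicate 1 was left out (509 to 1272 at an unadjusted p under 0.05). With 2 against 2 libraries, KO replicate 1 and WT replicate 3 being left out, it called 80, with Tmem176b and Id2 among them. For Id2 these were its lowest KO and highest WT library. Blk and Cd163l1 were not tested in that setting. The GC content and length correction gave 27. The replicate number as a block gave 1 gene and, together with that correction, 185 of 11772 (115 higher in KO), with Tmem176a and Tmem176b among them. The numbers share no stated origin: deviations of same-numbered libraries correlated across genes at -0.36, 0.15 and 0.14. Genes without overlap between the groups numbered 1843, 1856 with DESeq2 size factors, 1794 in FPKM and 3507 without KO replicate 1. The same number of the 7 genes, 4, had no overlap in each of these.

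Of 127 alternative values for the 7 genes, 113 lay within the spread between replicates, 14 did not, and 2 had the opposite sign, both of Id3 (-0.62 without KO replicate 1 and -0.96 with 2 against 2 libraries). That spread is the SD between replicates in log2 CPM, 1.55 for Cd163l1 and 1.09 for Id3. Large shifts of these genes therefore count as within it, and the alternatives share the same libraries, so the 113 are no measure of robustness. Of 214 alternative medians of the gene lists, 7 had the opposite sign. Of these, 4 were of the group 2 innate lymphoid cell markers and 1 of the list with E proteins, Id genes, Lyl1 and Tal1. The other 2 were of the MS4A-related genes (-0.41 without KO replicate 2 and -0.16 on FPKM with the minimum of 1). On log2(FPKM + 1), which understates changes of low genes, Zbtb16 stood at +1.04, Blk at +0.34 and Cd163l1 at +0.56. For Blk and Cd163l1, counts of 12 or fewer in 5 of 6 libraries limit the precision.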
